A study of Mus musculus with 47 samples.

Results

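The protein genes of the cytosolic ribosome were followed through the cranial neural crest of the mouse, an embryonic cell population that migrates into the head and builds most of the face. The 87 genes are the protein-coding rows of the count table, 87 of 38215, whose symbol is Rpl or Rps followed by a digit, with the stalk genes Rplp0, Rplp1 and Rplp2 and with Rpsa. Rows of pseudogenes and of the ribosomal protein S6 kinases were left out. They comprise 43 large-subunit genes, 3 stalk genes, 31 small-subunit genes, 9 paralogs of such genes and Rps19bp1, which encodes a protein that binds the Rps19 protein and is not itself part of the ribosome. Fau, which encodes a ribosomal protein fused to a ubiquitin-like part, falls outside the symbols and is given beside the 87. The 47 libraries fall into 16 groups. Mutant and manipulated cells were Ezh2cKO (conditional loss of Ezh2) at E10.5 from 4 parts of the face and neck, namely FNP (frontonasal process), Mx (maxillary process), Md (mandibular process) and PA2 (pharyngeal arch 2), HoxA2OE (overexpression of Hoxa2) at E10.5 from Md, and Hoxa2TempMut at E11.5 from PA2, with 3 libraries in each group. Their comparison groups were wild-type (WT) cells of the same 4 subpopulations at E10.5, with 3 libraries each and 2 for Mx, and a group named Control at E11.5 from PA2, with 3 libraries. WT cells of the 4 subpopulations at E11.5 and WT neural crest progenitors at E8.5 completed the series, with 3 libraries each. The labels used here do not name the promoter or recombinase behind the alleles, what the Control embryos carry, or whether libraries of a group came from separate embryos, so the p-values measure the spread between these libraries. RNA was total RNA of dissected, dissociated and sorted cells, sequenced without strand information as single reads of 50 bases.

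A ribosome carries 1 copy of nearly every one of these proteins, with the stalk proteins P1 and P2 present in several copies at the site where translation factors dock. Their mRNAs belong to the 5′ terminal oligopyrimidine (TOP) class: transcription starts at a C within a run of C and T, and this run lets the mTOR pathway and LARP1 adjust their translation together. Craniofacial tissue is sensitive to ribosome supply. Loss of 1 copy of a ribosomal protein gene causes Diamond-Blackfan anaemia in humans, often with facial malformation, and mutation of TCOF1, a factor of ribosomal RNA synthesis, causes Treacher Collins syndrome. In mice, mutations of Rpl38 alter axial patterning and translation of Hox mRNAs, and mutations of Rps19 or Rps20 cause dark skin with small body size. Free Rpl5 and Rpl11 proteins, bound to 5S ribosomal RNA, inhibit Mdm2 and so stabilise p53.

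Promoter sequence was available for 64 of the 87 genes, from 250 bases before to 50 bases after the RefSeq start (build GRCm38.p6). A run of at least 8 C or T on the gene's strand within 10 bases of the start was present in 42.2% of these 64 promoters, against 13.9% of all 27025 promoters of the same length. This rule resembles the TOP element but asks for no C at the start itself. It also depends on the length cut and on the annotated start, so the share is not a count of TOP elements. On either strand, the ETS-family core CCGGAAG was present in 37.5% against 9.12%, CTTTCC in 50% (32 of 64) against 26.3%, the GC box GGGCGG in 60.9% against 35.9%, the YY1-type AAGATGG in 14.1% against 6.48% and TATAAA in 9.38% against 14.2%. CTTTCC read on the gene's strand consists of C and T and can lie within such a run, and motifs such as CCGGAAG and AAGATGG can share bases at their ends, so that a stretch can count for both. The stretches below run from 80 bases before the start to 20 bases from it onward, with matches to these motifs on either strand in capitals. They are shown for 6 genes that the stage comparisons turn on: Rpl38 and Rps21, lower at E11.5 than at E10.5, Rps4x, higher at E11.5, Rpl15, lower at E10.5 than at E8.5, and the paralogs Rpl22l1 and Rpl22.
Rpl38 (chr11:114668500-114668599, plus strand): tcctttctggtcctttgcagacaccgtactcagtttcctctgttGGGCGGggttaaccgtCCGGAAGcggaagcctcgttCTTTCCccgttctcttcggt
Rps21 (chr2:180257299-180257398, plus strand): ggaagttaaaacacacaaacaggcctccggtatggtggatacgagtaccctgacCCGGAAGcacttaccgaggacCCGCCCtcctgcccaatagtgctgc
Rps4x (chrX:102189372-102189471, minus strand): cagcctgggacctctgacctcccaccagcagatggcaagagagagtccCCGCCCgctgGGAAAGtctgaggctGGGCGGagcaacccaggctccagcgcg
Rpl15 (chr14:18270967-18271066, minus strand): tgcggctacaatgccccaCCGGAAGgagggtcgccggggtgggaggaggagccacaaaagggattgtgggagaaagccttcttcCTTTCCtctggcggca
Rpl22l1 (chr3:28805428-28805527, plus strand): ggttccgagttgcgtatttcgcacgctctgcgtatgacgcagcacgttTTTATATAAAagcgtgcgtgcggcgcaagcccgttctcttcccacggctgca
Rpl22 (chr4:152325646-152325745, plus strand): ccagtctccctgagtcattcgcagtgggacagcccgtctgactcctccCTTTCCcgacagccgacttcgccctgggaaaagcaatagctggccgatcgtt
The longest C and T run near the start was 17 bases in Rpl15, 10 in both Rpl38 and Rpl22l1, 7 in Rps21, and 4 in both Rps4x and Rpl22. Rpl22l1 alone of the 6 held TATAAA in this stretch. A match to such letters is a description of the sequence and not of binding.

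The libraries held 18.8 M to 49.8 M counts (M stands for 1e6), with a median of 30.6 M, of which mitochondrial genes took 11.46% to 45.9%. Ezh2, the catalytic subunit of Polycomb repressive complex 2, stood at 113 to 157 CPM in the 12 Ezh2cKO libraries, against 350.3 to 404 CPM in the 11 WT libraries of E10.5 (log2 fold change -1.41, SE 0.05, adjusted p = 4.09e-24). Hoxa2, the selector gene of the second arch, stood at 92.8, 112 and 124 CPM in HoxA2OE Md cells, against 0.297, 0.248 and 0.265 CPM in WT Md cells. In Hoxa2TempMut cells Hoxa2 stood at 195, 185 and 176 CPM, against 268, 268 and 269 CPM in Control cells, a difference that did not pass the test (log2 fold change -0.54, SE 0.21, adjusted p = 0.503). The labels do not say which part of Hoxa2 that allele changes. Summed markers of cranial crest mesenchyme were 1563 to 1970 CPM in the WT libraries of E10.5 and 308 to 388 CPM in the E8.5 progenitors, in which neural tube markers reached 309 to 393 CPM and endothelial markers 185 to 196 CPM. Libraries that stood apart from their group over all genes, by the chi-square per degree of freedom of their counts, were HoxA2OE 1 (317 and 332 against 12.2 between the other libraries), E8.5 progenitors 1 (119 and 128 against 6.71), E11.5 FNP 3 (71.4 and 65.4 against 12.1), E10.5 FNP 1 (42.3 and 44.4 against 6.19), Ezh2cKO Mx 3 (18.3 and 14.1 against 5.70), E10.5 PA2 1 (8.86 and 8.70 against 3.53) and E11.5 Mx 3 (24.6 and 32.7 against 11.52), by a ratio of at least 2 for both of its pairs, and calls of named genes that change without them are given with the comparison.

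Counts of the 87 genes made up 0.399% to 1.39% of a library. All levels below are counts scaled to a library total of 1e6 after TMM scaling (CPM). Levels of different genes are compared only per kb, of coding sequence unless exonic bases are named. Among the highest mean levels over the 47 libraries were those of Rpl41 (842 CPM per kb), Rpl4 (818 CPM per kb), Rpl32 (563 CPM per kb) and Rpl10a (469 CPM per kb), all core components of the ribosome. The place of Rpl41 depended on the length used, as the 1 annotated transcript chosen for it has 138 coding bases and the gene 1168 exonic bases. Another transcript could give another coding length and place. Per kb of exonic bases these genes stood at 99.5, 723, 441 and 130 CPM in the same order. The lowest were the tissue-restricted paralogs Rpl10l, with 1 count over all 47 libraries, Rpl3l, with 35 counts, and Rpl39l, with 61 counts, none of which passed the filter on low counts. Rpl29 (1.58 CPM per kb) and Rps2 (3.07 CPM per kb) came next, although both encode core proteins present once per ribosome. Ribosomal protein genes have many processed pseudogenes, and a read of 50 bases that fits several places may be dropped or assigned elsewhere. Of the 50-base words in the transcripts of Rpl29 and Rps2, 66.6% and 71.3% also occur elsewhere in the genome's annotated transcripts or pseudogenes. The share was above 50% in 38 of the 84 genes with a value, with a median of 48.5%, and it was 2.96% for Rps3. Across 81 genes, mean CPM per kb and the share of such words had a Spearman rho of -0.34, over genes that share libraries and so are not independent. The table's row for Rpl24 (ENSMUSG00000022601, chromosome 16, 55966275 to 56008913) spans Rpl24 and its neighbour Zbtb11 in the annotation, and counts of those genes cannot be told apart in it. The reference annotation names this row's ID Zbtb11, and the row has 6029 exonic bases. It was kept among the 43 large-subunit genes and in all counts of genes.

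The summed level of the 87 genes was highest in the E8.5 progenitors, at 13147 ± 550.2 CPM (SD, n = 3), and lowest in the Control and Hoxa2TempMut groups, at 4426 ± 189 CPM (SD, n = 3) in Hoxa2TempMut cells and 4395 ± 144 CPM (SD, n = 3) in Control cells. WT cells of E10.5 averaged 8645 ± 602 CPM (SD, n = 3) for FNP, 9332 ± 100 CPM (SD, n = 2) for Mx, 9536 ± 402 CPM (SD, n = 3) for Md and 7806 ± 883 CPM (SD, n = 3) for PA2. WT cells of E11.5 averaged 8765 ± 528 CPM (SD, n = 3) for FNP, 7614 ± 1275 CPM (SD, n = 3) for Mx, 8222 ± 422 CPM (SD, n = 3) for Md and 7377 ± 395 CPM (SD, n = 3) for PA2. With the WT groups of E10.5 and E11.5 ordered by their means, each overlapped the next between libraries, while the E8.5 libraries lay above all of them and the Hoxa2TempMut and Control libraries below all of them. In these bulk samples, fewer cells of a type and less of an RNA per cell cannot be told apart.

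**Figure D1:**
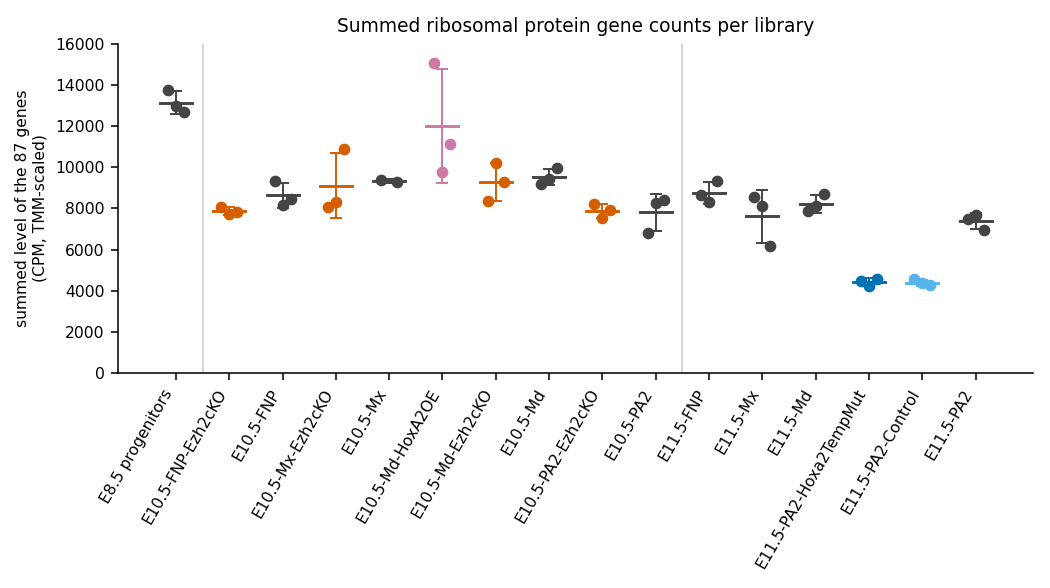
Summed level of the 87 ribosomal protein genes in each of the 47 libraries (points, CPM of TMM-scaled totals), by group, with bars at the group mean and lines for the SD. The 3 E8.5 libraries sit between 12702 and 13762 CPM, HoxA2OE libraries spread between 9769.9 and 15091 CPM, and the Hoxa2TempMut and Control libraries sit between 4216 and 4583 CPM.

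The comparisons were tested in 1 edgeR quasi-likelihood fit over all 47 libraries and 20560 genes, with Benjamini-Hochberg adjustment over those genes. A gene is called where its adjusted p is below 0.05, and 84 of the 87 genes were tested. Several comparisons share libraries: the WT libraries of E10.5 serve both stage comparisons, the position comparisons and the Ezh2cKO comparison, the WT Md libraries among them serve HoxA2OE, and the Control libraries serve 2 comparisons. The changes are therefore given side by side and are not independent of one another.

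**Figure D2:**
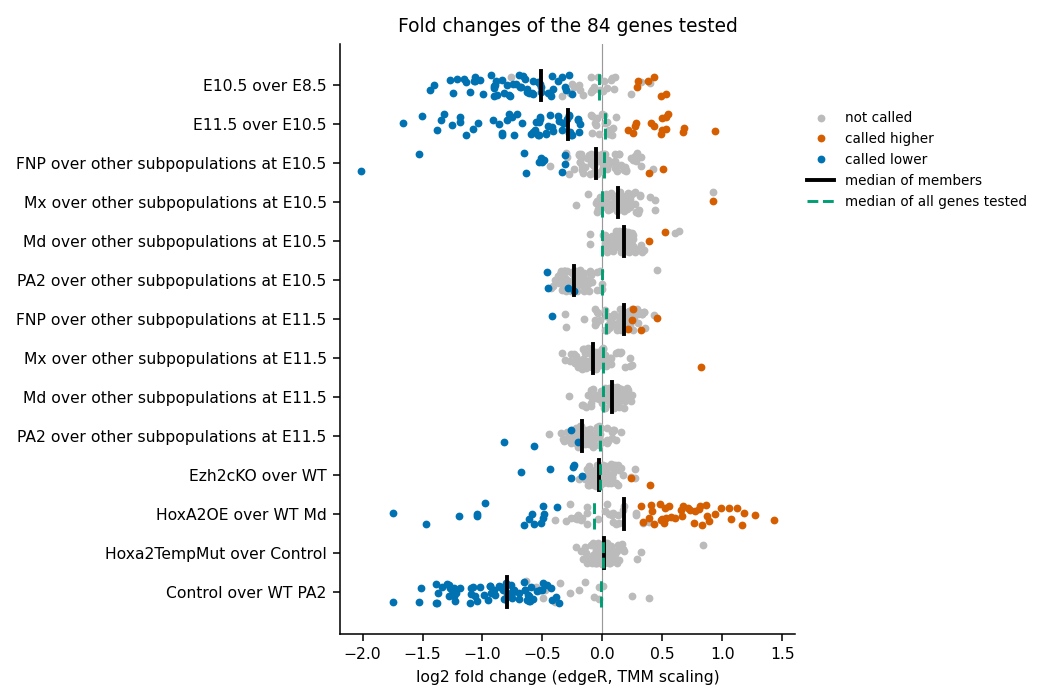
Log2 fold changes of the 84 tested genes in each comparison (points, coloured by whether the gene was called higher, called lower or not called), with the median of the 84 genes as a black bar and the median of all tested genes as a green dashed line. The median of the 84 genes lies lowest in Control over WT PA2, at -0.79, and at 0.02 in Hoxa2TempMut over Control.

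Between E8.5 and E10.5 the ribosomal protein genes were lower as a group in the postmigratory cells. The comparison sets the mean of the 4 WT subpopulations at E10.5 (11 libraries) against the progenitors (3 libraries). Of the 84 genes, 6 rose and 53 fell, while over all tested genes 32.1% rose and 36.3% fell. Their median log2 fold change was -0.51, against -0.03 over all tested genes, and in 40 genes every E10.5 library lay below every E8.5 library, as in 23.1% of all tested genes. Without library 1 of E8.5, 6 genes rose and 51 fell.

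By role, 27 of 43 large-subunit genes fell and 2 rose, 18 of 31 small-subunit genes fell and 4 rose, and 5 of 6 tested paralogs fell. The steepest fall with at least 5 CPM was that of Rpl22l1 (ENSMUSG00000039221, chromosome 3, 28805436 to 28807352), the paralog that can take the place of Rpl22 and whose mRNA is repressed by the Rpl22 protein in mouse. Rpl22l1 stood between 20.3 and 39.8 CPM (median 27.9) in the 11 E10.5 libraries, against 106, 64.1 and 62.5 CPM in the progenitors (log2 fold change -1.44, SE 0.16, adjusted p = 1.19e-10). The groups did not overlap, and library 1 of E8.5 was the highest. Rpl22 itself stood between 131 and 212 CPM (median 168) at E10.5, against 237, 185 and 188 CPM in the progenitors, with overlapping groups and a smaller fall (log2 fold change -0.30, SE 0.11, adjusted p = 0.0189). Rpl15 (ENSMUSG00000012405, chromosome 14, 18267823 to 18271391), a large-subunit gene linked to Diamond-Blackfan anaemia in humans, stood between 60.5 and 83.6 CPM (median 78.6) at E10.5, against 249, 193 and 155 CPM in the progenitors, with no overlap (log2 fold change -1.40, SE 0.11, adjusted p = 2.37e-14). Rpl7, of the large subunit, stood between 97.6 and 151 CPM (median 127) at E10.5, against 327, 304 and 299.998 CPM in the progenitors (log2 fold change -1.27, SE 0.08, adjusted p = 5.96e-17). Its paralog Rpl7l1, whose protein acts in making the large subunit, fell less, with a log2 fold change of -0.82 (adjusted p = 7.32e-10). Rpsa (ENSMUSG00000032518, chromosome 9, 120127766 to 120132369), a small-subunit gene whose protein was first described as a laminin receptor and whose human counterpart is mutated in congenital absence of the spleen, stood between 23.1 and 40.4 CPM (median 35.5) at E10.5, against 63.9, 88.6 and 88.9 CPM in the progenitors (log2 fold change -1.25, SE 0.13, adjusted p = 8.12e-11). All 3 progenitor libraries of Rpsa and Rpl7 lay above every E10.5 library.

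The stalk split by member. Rplp0, its base, stood between 145 and 223 CPM (median 193) at E10.5, against 457, 405 and 405 CPM in the progenitors, without overlap (log2 fold change -1.22, SE 0.09, adjusted p = 9.21e-15). Rplp2 fell by less (log2 fold change -0.52, adjusted p = 5.45e-05), and Rplp1 did not pass the test (log2 fold change -0.27, adjusted p = 0.236). Among genes with developmental phenotypes, Rps20 fell with a log2 fold change of -1.15 (adjusted p = 2.39e-08), Rps7 with -1.07 (adjusted p = 2.66e-10) and Rpl11 with -0.72 (adjusted p = 6.2e-08). Rps6, the substrate of the S6 kinases, fell with -0.28 (adjusted p = 0.0117). Rpl38 (log2 fold change 0.32, adjusted p = 0.0996), Rps19 (log2 fold change 0.02, adjusted p = 0.923) and Rpl5 (log2 fold change -0.17, adjusted p = 0.0853) did not pass the test. The row shared by Rpl24 and Zbtb11 had a log2 fold change of -0.34 (adjusted p = 0.000663).

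Of the other paralog pairs, Rps27l fell (log2 fold change -0.999, adjusted p = 1.05e-05) while Rps27 did not pass the test (log2 fold change 0.40, adjusted p = 0.061). Rps4y2, which the reference annotation names Rps4l, fell with a log2 fold change of -0.75 (adjusted p = 1.51e-06), and the X-linked Rps4x fell with -0.78 (adjusted p = 1.1e-11). Rpl36a fell (log2 fold change -0.58, adjusted p = 0.00154), and its paralog Rpl36al did not pass the test (log2 fold change -0.02, adjusted p = 0.907). Rpl39, whose protein lines the exit tunnel of the ribosome, fell with -1.06 (adjusted p = 2.95e-06), Rpl3, at the peptidyl transferase centre, with -0.37 (adjusted p = 1.06e-05), and Rpl10 did not pass the test (log2 fold change -0.09, adjusted p = 0.468).

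The largest rise was that of Rpl35a, a Diamond-Blackfan gene in humans, which stood between 19.6 and 33.6 CPM (median 24.6) at E10.5, against 16, 16.8 and 19.4 CPM in the progenitors, with no overlap (log2 fold change 0.53, SE 0.12, adjusted p = 0.000107). Rps14, the small-subunit gene lost in the human 5q syndrome, rose with a log2 fold change of 0.49 (adjusted p = 0.0061), Rpl28 with 0.43 (adjusted p = 0.00365) and Rps21 with 0.38 (adjusted p = 0.0339). The libraries of these last genes overlapped between the stages. Several of these calls rested on library 1 of E8.5, which stood apart over all genes. Without it Rpl22 (-0.17, adjusted p = 0.266), Rpl36a (-0.30, adjusted p = 0.153), Rps6 (-0.23, adjusted p = 0.0846), Rps14 (0.38, adjusted p = 0.0597) and Rpl28 (0.28, adjusted p = 0.0836) were no longer called. Without it Rpl38 (0.57, adjusted p = 0.0135), Rps27 (0.57, adjusted p = 0.0269) and Rpl10 (-0.28, adjusted p = 0.0214) were called, and without library 1 of E10.5 FNP Rpl5 was (-0.19, adjusted p = 0.0413). Rps27 was called without library 1 of E10.5 PA2 too (0.43, adjusted p = 0.0439). Rpl22l1, Rpl15, Rpl7 and Rpsa kept log2 fold changes of -1.14, -1.20, -1.23 and -1.38 without library 1 of E8.5.

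Genes that make ribosomes moved the same way. Of 70 tested genes of ribosome biogenesis and RNA polymerase I, 61 fell and 5 rose, with a median log2 fold change of -0.65. They included Fbl, the methyltransferase of box C/D small nucleolar RNAs (-1.63), the nucleolar chaperone Npm1 (-1.61) and Rrs1, of large-subunit assembly (-1.59). All 20 listed translation factors and other TOP mRNAs fell, with a median of -0.64 (Btf3 -1.32, Gnb2l1 -1.05, Pabpc1 -0.93), and Fau fell with -0.32. Of 77 mitochondrial ribosomal protein genes, 45 fell and 7 rose (median -0.38). The 24 listed growth regulators of translation split, with 8 higher and 9 lower (median -0.09). Among them Myc and Mycn, transcription factors that drive ribosome production, fell with log2 fold changes of -1.90 and -1.26. Among the ribosomal protein genes, 21 of 30 that host small nucleolar RNA genes in their introns fell, against 32 of the 54 that host none. Markers of other cell types moved with the stage: erythroid markers summed to 25.8 to 439 CPM at E10.5 and 625 to 1018 CPM at E8.5 (7 of 9 lower), epithelial markers to 2.96 to 18.5 CPM at E10.5 and 169 to 197 CPM at E8.5 (9 of 9 lower) and neural tube markers to 20.7 to 31.7 CPM at E10.5 and 309 to 393 CPM at E8.5 (8 of 8 lower). Their part in the fall of the ribosomal protein genes was not tested.

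From E10.5 to E11.5 the genes split, with a fall in most and a clear rise in some. The mean of the 4 WT subpopulations at E11.5 (12 libraries) was set against that at E10.5 (11 libraries). Of the 84 genes, 15 rose and 52 fell, while over all tested genes 33.7% rose and 30.1% fell. The median log2 fold change was -0.29, against 0.03 over all tested genes, and the range ran from -1.67 (Rpl36al) to 0.94 (Rps4y2). Scaled by library totals alone, 22 rose and 39 fell, with a median of all genes of 0.14.

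The largest fall was that of Rpl36al (ENSMUSG00000049751, chromosome 12, 69182731 to 69184083), the autosomal paralog of the X-linked Rpl36a. Rpl36al stood between 14.9 and 22.9 CPM (median 20.2) at E11.5, against 49.7 to 78.3 CPM (median 61) at E10.5 (log2 fold change -1.67, SE 0.10, adjusted p = 3.66e-18), while Rpl36a had a log2 fold change of -0.52 (adjusted p = 5.34e-05). Rpl38 (ENSMUSG00000057322, chromosome 11, 114668524 to 114672331) stood between 8.4 and 13.9 CPM (median 10.4) at E11.5, against 19.1 to 34.8 CPM (median 27.6) at E10.5 (log2 fold change -1.38, SE 0.11, adjusted p = 7.64e-14). Rps21, of the small subunit, stood between 8.82 and 14.4 CPM (median 12.5) at E11.5, against 19.7 to 41.5 CPM (median 31.7) at E10.5 (log2 fold change -1.34, SE 0.10, adjusted p = 1.65e-14). In none of these genes did the 12 libraries of E11.5 overlap the 11 of E10.5. Rpl38 in its 4 subpopulations stood at 12, 11.9 and 13.9 CPM in E11.5 FNP against 27, 25 and 27.8 CPM in E10.5 FNP, at 10.7, 9.58 and 8.4 CPM in E11.5 Mx against 33.3 and 27.1 CPM in E10.5 Mx, at 11.1, 9.98 and 13.6 CPM in E11.5 Md against 27.6, 30.3 and 34.8 CPM in E10.5 Md, and at 9.94, 9.85 and 9.12 CPM in E11.5 PA2 against 19.1, 28.1 and 27.5 CPM in E10.5 PA2. Every subpopulation was lower at E11.5. Rpl41, the shortest of the ribosomal proteins, fell with a log2 fold change of -1.25 (adjusted p = 1.07e-13), without overlap.

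The largest rise was that of Rps4y2 (ENSMUSG00000063171, chromosome 6, 148354656 to 148355598), which stood between 11.4 and 17 CPM (median 14.3) at E11.5, against 4.7 to 9.98 CPM (median 7.49) at E10.5 (log2 fold change 0.94, SE 0.09, adjusted p = 1.63e-12). Its X-linked counterpart Rps4x (ENSMUSG00000031320, chromosome X, 102184941 to 102189394) stood between 365 and 569 CPM (median 416) at E11.5, against 232 to 314 CPM (median 274) at E10.5 (log2 fold change 0.67, SE 0.05, adjusted p = 2.73e-14). Both rose without overlap between the stages, and since they are paralogs the split of reads between them is uncertain. Rps3a (ENSMUSG00000028081, chromosome 3, 86137940 to 86142702), a small-subunit gene near the mRNA exit, stood between 254 and 414 CPM (median 309.6) at E11.5, against 144 to 239 CPM (median 200.2) at E10.5 (log2 fold change 0.68, SE 0.09, adjusted p = 7.36e-09). Rpl7a, of the large subunit, stood between 69.8 and 98.3 CPM (median 86.8) at E11.5, against 43.1 to 64.9 CPM (median 58.6) at E10.5 (log2 fold change 0.55, SE 0.06, adjusted p = 2.19e-10). Neither Rps3a nor Rpl7a overlapped between the stages, and 71% and 81.2% of their 50-base words occur elsewhere. That share was 72.2% for Rps4x and 66.8% for Rpl7, and Rps4y2 had no value. Of the 38 genes with a share above 50%, 11 rose and 20 fell, while 15 rose and 52 fell of all 84. Of the 6 genes with a share of at most 10%, 2 rose and 3 fell. The part of reads that fit several places in these changes was not tested. Rpl7 rose with a log2 fold change of 0.50 (adjusted p = 1.13e-09), whereas its paralog Rpl7l1 fell with -0.41 (adjusted p = 7.81e-07). The row shared by Rpl24 and Zbtb11 rose with 0.41 (adjusted p = 4.74e-08).

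**Figure D3:**
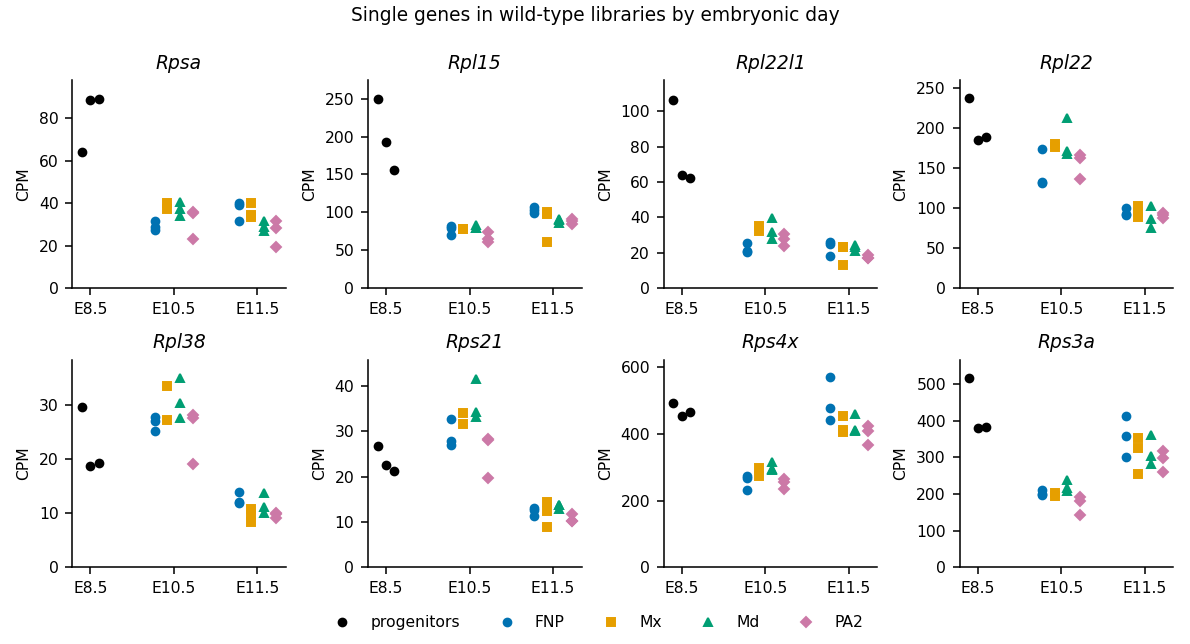
Levels (CPM of TMM-scaled totals) of Rpsa, Rpl15, Rpl22l1, Rpl22, Rpl38, Rps21, Rps4x and Rps3a in the WT libraries at E8.5, E10.5 and E11.5, 1 point per library, coloured by subpopulation. Rpl38 lies between 8.4 and 13.9 CPM in all E11.5 libraries and between 19.1 and 34.8 CPM in all E10.5 libraries, and Rps4x lies between 365 and 569 CPM at E11.5.

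Rpl22 fell at this step, standing between 75.4 and 103 CPM (median 92.1) at E11.5 against 131 to 212 CPM (median 168) at E10.5, without overlap (log2 fold change -0.84, SE 0.08, adjusted p = 1.23e-12). Rpl22l1 overlapped between the stages and fell by less (log2 fold change -0.47, SE 0.11, adjusted p = 0.000334). Rps19, the gene most often mutated in Diamond-Blackfan anaemia, stood between 18.3 and 31.9 CPM (median 29.2) at E11.5, against 35.8 to 52.9 CPM (median 48.1) at E10.5, without overlap (log2 fold change -0.74, SE 0.09, adjusted p = 1.35e-09). Of the 19 genes linked to that anaemia in humans, 13 fell and 2 rose, while of all 84 genes 61.9% fell and 17.9% rose. Between E8.5 and E10.5, 10 of the 19 fell and 1 rose, while of all 84 genes 63.1% fell and 7.14% rose. Rpl5 fell with a log2 fold change of -0.52 (adjusted p = 1.13e-10), and its partner Rpl11 did not pass the test (log2 fold change 0.05, adjusted p = 0.509). Rps27 fell with -1.14 (adjusted p = 1.07e-10) and Rps27l with -0.59 (adjusted p = 0.000138). Rps6 fell with -0.55 (adjusted p = 9.88e-10), Rpl39 with -0.58 (adjusted p = 0.000165), Rps20 with -0.37 (adjusted p = 0.00269) and Rpl10 with -0.28 (adjusted p = 0.00101). Of the stalk, Rplp1 fell with -0.36 (adjusted p = 0.0192) and Rplp2 with -0.19 (adjusted p = 0.0212), while Rplp0 did not pass the test (log2 fold change 0.02, adjusted p = 0.787). Rpsa (-0.10), Rps7 (0.06) and Rpl3 (-0.08) did not pass the test. Rplp2 was no longer called without library 1 of E10.5 FNP (-0.14, adjusted p = 0.0689), and Rpl3 was called without library 3 of E11.5 FNP (-0.12, adjusted p = 0.0324).

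Of the biogenesis genes 54 of 70 fell and 1 rose (median -0.36), with the largest falls in Gar1 (-1.55) and Nhp2 (-1.08), of the box H/ACA small nucleolar particles, and Taf1d (-1.06), of RNA polymerase I initiation. The translation factors split, with 8 of 20 higher and 5 lower (median 0.09). Of the mitochondrial ribosomal protein genes 23 of 77 rose and 28 fell (median -0.02), and Fau (-0.26) fell. Markers of crest mesenchyme summed to 2458 to 3061 CPM at E11.5 and 1563 to 1970 CPM at E10.5 (8 of 12 higher), endothelial markers to 11.45 to 37.96 CPM at E11.5 and 4.78 to 11.52 CPM at E10.5 (7 of 10 higher), erythroid markers to 28.1 to 81.6 CPM at E11.5 and 25.8 to 439 CPM at E10.5 (7 of 9 lower), and mitochondrial genes took 11.7% to 19.5% of counts at E11.5 and 19.9% to 33.6% at E10.5. Their part in the stage change was not tested.

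Whether the stage change differed among the 4 subpopulations was asked with an F test on 3 contrasts. It called 5 of the 84 genes, while it called 15.6% of all tested genes, and DESeq2 called 7. It called 11 in a fit of only these groups and 12 either with no filter on low counts or scaled by library totals. Rps9, a small-subunit gene of decoding fidelity, had log2 fold changes of 0.58 for FNP, -0.34 for Mx, -0.23 for Md and -0.04 for PA2 (adjusted p = 0.00205). In FNP, Rps9 stood at 219, 197 and 241 CPM at E11.5 against 162, 138 and 138 CPM at E10.5, and in Mx at 227, 206 and 139 CPM at E11.5 against 253 and 229 CPM at E10.5. For Rps9, every E11.5 FNP library lay above every E10.5 FNP library, and every E11.5 Mx library lay below both E10.5 Mx libraries. Rps3, which lies at the mRNA entry site, had log2 fold changes of -0.26 for FNP, -1.10 for Mx, -0.88 for Md and -0.88 for PA2 (adjusted p = 0.0297), Rpl35a of -0.99 for FNP, -0.35 for Mx, -0.34 for Md and -0.21 for PA2 (adjusted p = 0.016), and Rpl3 of 0.27 for FNP, -0.29 for Mx, -0.18 for Md and -0.13 for PA2 (adjusted p = 0.00725). Without library 3 of E11.5 FNP the test called 1 gene, without library 2 of E10.5 FNP it called 2, and without library 1 of E10.5 PA2 it called 8.

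Between positions, calls in the fit over all libraries covered at most 14 of the 84 genes in any 1 subpopulation, and more at E10.5 in fits of only the groups compared. Each subpopulation was set against the mean of the other 3 WT subpopulations of its stage. At E10.5, FNP had 2 genes higher and 12 lower, while 15.9% of all tested genes were higher and 11.7% lower there. A fit of only the WT groups of E10.5 called 4 higher and 21 lower. Mitochondrial genes took 28.2% to 33.6% of counts in FNP and 19.9% to 24.0% in the other subpopulations, erythroid markers summed to 25.8 to 52.7 CPM in FNP and 182 to 439 CPM in the others (8 of 9 lower), and epithelial markers to 8.72 to 18.5 CPM in FNP and 2.96 to 5.29 CPM in the others (6 of 9 higher). Their part in the FNP differences was not tested. Rps9 stood at 162, 138 and 138 CPM in FNP, against 176 to 261 CPM in the 8 libraries of the other subpopulations, without overlap (log2 fold change -0.65, SE 0.12, adjusted p = 3.11e-05). Rps3 stood at 249.97, 265 and 285 CPM in FNP, against 301 to 424 CPM in the others (log2 fold change -0.51, SE 0.13, adjusted p = 0.00305). Rps28, of the small subunit, was lower in FNP (log2 fold change -0.53, adjusted p = 0.00528), as was Rps4y2 (-0.52, adjusted p = 0.00651). Rps26 (log2 fold change 0.50, adjusted p = 0.000803) and Rps24 (0.39, adjusted p = 0.0104), Diamond-Blackfan genes in humans, were higher in FNP. Scaled by library totals, FNP had 0 genes higher and 24 lower, without library 1 of E10.5 FNP 1 higher and 13 lower (Rps4y2 and Rps24 no longer called), and without library 2 or 3 it had 4 higher and 7 lower.

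In the other subpopulations of E10.5, Mx had 1 gene higher and 0 lower (4.37% of all tested genes higher, 2.91% lower), and that gene was Rps2 at under 6 CPM (log2 fold change 0.92, adjusted p = 0.0421). Rps2 was not called without either Mx library. Nervous system markers summed to 289.8 to 329.97 CPM in the Mx libraries, against 22.8 to 25.4 CPM in the others. Md had 2 genes higher and 0 lower (3.14% and 3.68% of all tested genes), Rps4y2 with a log2 fold change of 0.52 (adjusted p = 0.0123) and Rps9 with 0.39 (adjusted p = 0.0228). PA2 had 0 genes higher and 4 lower (5.59% and 4.94% of all tested genes): Rps26 (-0.46, adjusted p = 0.0072), Rpl37a (-0.45, adjusted p = 0.047), Rpl7 (-0.29, adjusted p = 0.0463) and Rpl6 (-0.24, adjusted p = 0.0308). Rpl37a stood at 42.5, 65.2 and 65.4 CPM in PA2, against 69.1 to 108 CPM in the other libraries, with no overlap. In PA2 the log2 fold change was below 0 in 83 of the 84 genes, with a median of -0.24 and 30 genes lower at an unadjusted p under 0.05. Over all tested genes 51.0% were below 0, 10.47% were lower at an unadjusted p under 0.05 and the median was -0.01, and the median of the 1853 other coding genes with at most 1500 exonic bases was -0.08. In Md the log2 fold change was above 0 in 82 of 84, with a median of 0.18, against 49.4% and a median of 0.00 over all tested genes. In Mx it was above 0 in 75 of 84, with a median of 0.13, against 49.95% of all tested genes. The other coding genes with at most 1500 exonic bases had medians of 0.08 in Md and 0.02 in Mx. Each comparison has the other 3 subpopulations as its reference, so low values in PA2 raise those of the others. Fits of only the WT groups of E10.5 called 18 lower in PA2, 7 higher in Md and 3 higher in Mx. Without library 1 of E10.5 PA2 no gene was called in PA2, without library 3 there were 7, and without library 2 or 3 of E10.5 Md no gene was called in Md. Without library 1 of E10.5 FNP, Rpl37a and Rpl7 were no longer called in PA2.

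At E11.5, FNP had 5 genes higher and 1 lower (12.6% and 12% of all tested genes). Rps15, of the small subunit, stood at 78.7, 98.5 and 111 CPM in FNP, against 54.1 to 96.5 CPM in the other 9 libraries (log2 fold change 0.46, SE 0.10, adjusted p = 0.000526), and the groups overlapped. Rps4x (log2 fold change 0.26, adjusted p = 0.0167) and Rpl7 (0.25, adjusted p = 0.0364) were also higher, and Rpl35a was lower (-0.42, adjusted p = 0.0073). Without library 3 of E11.5 FNP no gene was called there, without library 1 of E11.5 Mx 13 were higher, and without library 3 of E11.5 Mx 1 was higher. Scaled by relative log expression, 3 were higher and 2 lower. Rps15 without library 3 of E11.5 FNP had a log2 fold change of 0.32 (adjusted p = 0.0535). Mx had 1 gene higher and 0 lower (5.84% and 5.5% of all tested genes), Rpl34 of the large subunit, at 25.3, 27.1 and 16.3 CPM in Mx, against 8.51 to 16.9 CPM in the others (log2 fold change 0.82, SE 0.12, adjusted p = 2.17e-06). PA2 had 0 genes higher and 4 lower (9.41% and 8.27% of all tested genes). Rpl34 stood there at 8.51, 11.6 and 9.19 CPM, against 13.7 to 27.1 CPM in the others, without overlap (log2 fold change -0.82, SE 0.14, adjusted p = 9.65e-06). Rps15 (-0.57, adjusted p = 6.51e-05), Rpl12 (-0.26, adjusted p = 0.0393) and Rpl6 (-0.20, adjusted p = 0.0455) were the others, and 2 genes were called without any 1 of the PA2 libraries or without library 3 of FNP. Rpl12 and Rpl6 were not called without library 3 of FNP or library 3 of Mx. In Md, edgeR called 0 genes higher and 0 lower (4.16% and 2.94% of all tested genes), with 0 at an unadjusted p under 0.05 and 0 called by DESeq2. The log2 fold change at E11.5 was below 0 in 74 of the 84 genes in PA2 and in 63 in Mx, against 53.2% and 49.4% of all tested genes. It was above 0 in 73 in FNP and in 63 in Md, against 53.96% and 50.6% of all tested genes.

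In Ezh2cKO cells most ribosomal protein genes stood close to WT levels, and a few fell. The comparison averages the difference over the 4 subpopulations at E10.5 (12 Ezh2cKO and 11 WT libraries). Of the 84 genes, 2 rose and 6 fell, while over all tested genes 16.1% rose and 14.7% fell. The median log2 fold change was -0.03, against -0.02 over all tested genes. By subpopulation, 68 of the 84 genes lay below 0 in FNP (median -0.15), 38 in Mx (median 0.01), 48 in Md (median -0.01) and 31 in PA2 (median 0.07). A fit of only the groups compared called 9 higher and 7 lower, by upper-quartile scaling 4 rose and 5 fell, and 1 rose without library 2 of WT Mx, library 1 of WT PA2, library 3 of Ezh2cKO Mx or library 2 of Ezh2cKO Md.

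The largest fall was that of Rps3a, which holds 2 small nucleolar RNA genes. It stood at 117, 128 and 129 CPM in Ezh2cKO FNP against 210.4, 200.2 and 198 CPM in WT FNP, and at 105, 137 and 131 CPM in Ezh2cKO Mx against 196 and 203 CPM in WT Mx. It stood at 117, 172 and 127 CPM in Ezh2cKO Md against 207, 216 and 239 CPM in WT Md, and at 114, 121 and 94 CPM in Ezh2cKO PA2 against 144, 181 and 191 CPM in WT PA2. Within each subpopulation every Ezh2cKO library lay below every WT library, although the ranges over all 4 subpopulations overlap. The log2 fold changes of Rps3a were -0.70 for FNP, -0.68 for Mx, -0.67 for Md and -0.65 for PA2 (over the 4 subpopulations log2 fold change -0.68, SE 0.09, adjusted p = 4.1e-08). As given above, 71% of its 50-base words occur elsewhere.

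**Figure D4:**
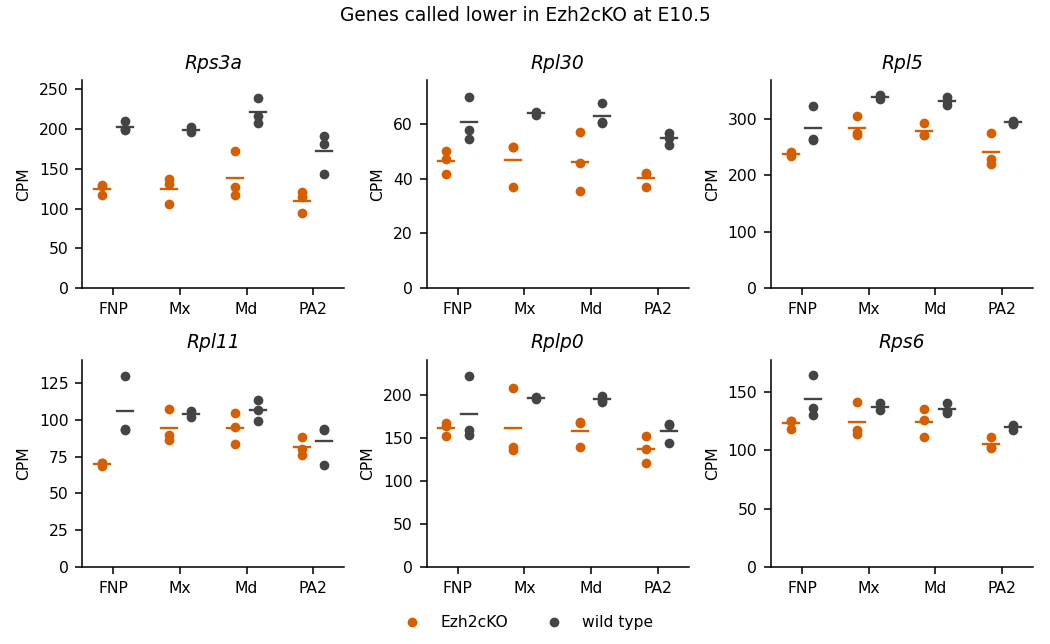
Levels (CPM of TMM-scaled totals) of Rps3a, Rpl30, Rpl5, Rpl11, Rplp0 and Rps6 in Ezh2cKO cells (left of each pair) and WT cells (right) of FNP, Mx, Md and PA2 at E10.5, 1 point per library with the group mean as a bar. For Rps3a the 12 Ezh2cKO libraries span 94 to 172 CPM and the 11 WT libraries 144 to 239 CPM.

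Rpl30 (ENSMUSG00000058600, chromosome 15, 34440505 to 34443640), a large-subunit gene whose yeast counterpart regulates its own splicing, stood at 50, 47.2 and 41.7 CPM in Ezh2cKO FNP against 69.9, 54.5 and 57.6 CPM in WT FNP, at 36.9, 51.7 and 51.4 CPM in Ezh2cKO Mx against 64.4 and 63.4 CPM in WT Mx, at 35.4, 56.9 and 45.6 CPM in Ezh2cKO Md against 60.5, 60.8 and 67.6 CPM in WT Md, and at 36.8, 41.6 and 42.1 CPM in Ezh2cKO PA2 against 52.4, 55 and 56.7 CPM in WT PA2. No subpopulation overlapped between the genotypes (log2 fold change -0.44, SE 0.08, adjusted p = 1.85e-05). The p53 regulators Rpl5 (log2 fold change -0.26, SE 0.06, adjusted p = 0.000328) and Rpl11 (log2 fold change -0.24, SE 0.07, adjusted p = 0.00593) fell by less. The log2 fold changes of Rpl11 were -0.59 for FNP, -0.14 for Mx, -0.17 for Md and -0.07 for PA2, and in FNP it stood at 70.7, 70.7 and 68.4 CPM in Ezh2cKO against 129.6, 93.6 and 93.2 CPM in WT. The WT FNP library 1, which stood apart over all genes, was the highest of these. Rplp0 (log2 fold change -0.24, SE 0.06, adjusted p = 0.00454) and Rps6 (log2 fold change -0.17, SE 0.06, adjusted p = 0.0411) fell, with overlapping groups. Rps6 was no longer called without library 1 of WT FNP (-0.14, adjusted p = 0.09). Rps4y2 (log2 fold change 0.40, SE 0.09, adjusted p = 0.000372) and Rpl34 (log2 fold change 0.24, SE 0.08, adjusted p = 0.0227) rose. Rpl34 was no longer called without library 3 of Ezh2cKO Mx (0.20, adjusted p = 0.0596) or library 1 of WT PA2 (0.20, adjusted p = 0.0577), which stood apart over all genes. Rpl38 (log2 fold change -0.04), Rps19 (-0.07), Rpl22 (-0.08), Rpl22l1 (0.13) and Rps27l (-0.12) did not pass the test.

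The F test of whether the Ezh2cKO difference varied among the subpopulations called 0 of the 84 genes with edgeR, with 1 at an unadjusted p under 0.05 and 0 called by DESeq2, while it called 1.63% of all tested genes. Of the biogenesis genes 43 of 70 fell and 0 rose in Ezh2cKO cells (median -0.20), among them Rrs1 (-0.51), Eif6 (-0.37), which keeps free large subunits from joining small ones, and Utp18 (-0.37), of small-subunit processing. Of the mitochondrial ribosomal protein genes 11 of 77 fell and 0 rose, and of the translation factors 8 of 20 fell and 1 rose. Of 16 listed p53 targets 8 rose and 1 fell, led by Pmaip1 (1.39), and of 24 growth regulators of translation 0 rose and 10 fell, with Myc at -0.36 and Mycn at -0.33. Markers of neurons and glia summed to 46.3 to 542 CPM in Ezh2cKO cells and 22.8 to 330 CPM in WT cells (8 of 12 higher), neural tube markers to 27.5 to 41.3 CPM in Ezh2cKO cells and 20.7 to 31.7 CPM in WT cells (4 of 8 higher), and epithelial markers to 9.19 to 16.7 CPM in Ezh2cKO cells and 2.96 to 18.5 CPM in WT cells (5 of 9 higher). Mitochondrial genes took 29.3% to 32.4% of counts in Ezh2cKO FNP and 28.2% to 33.6% in WT FNP, 24.9% to 28.3% in Ezh2cKO Mx and 21.8% to 22.6% in WT Mx, 25.5% to 31.0% in Ezh2cKO Md and 19.9% to 24.0% in WT Md, and 26.7% to 29.9% in Ezh2cKO PA2 and 22.2% to 23.6% in WT PA2. Mx, Md and PA2 did not overlap in this share, and its part and that of these cells in the differences was not tested.

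In HoxA2OE Md cells the ribosomal protein genes moved in both directions. Of the 84 genes, 37 rose and 15 fell, while over all tested genes 27.1% rose and 27.8% fell. The median log2 fold change was 0.18, against -0.07 over all tested genes, and 31 genes lay higher and 15 lower without overlap between the 3 HoxA2OE and 3 WT libraries, as did 26.6% and 28.3% of all tested genes. A fit of only these 2 groups called 17 higher and 10 lower. The direction depended on the scaling: by library totals, 6 rose and 45 fell, with a median of -0.45 for these genes and of -0.67 for all tested genes. Mitochondrial genes took 28.5% to 45.9% of counts in HoxA2OE cells and 19.9% to 24.0% in WT cells. Of non-mitochondrial counts, the 87 genes made up 1.44%, 1.06% and 1.19% in HoxA2OE cells and 1.22%, 1.27% and 1.32% in WT cells. Without library 1 of HoxA2OE, 22 genes rose and 21 fell.

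The changes below are relative to the TMM scaling. Rpl23a, at the mouth of the exit tunnel, stood at 129, 51.3 and 61.6 CPM in HoxA2OE cells, against 26.6, 31.2 and 31.6 CPM in WT cells (log2 fold change 1.43, SE 0.20, adjusted p = 1.21e-07). Rpl39, within that tunnel, stood at 102, 33.4 and 36 CPM in HoxA2OE cells, against 21.5, 21.8 and 27.5 CPM in WT cells (log2 fold change 1.27, SE 0.25, adjusted p = 4.02e-05). Rpl22l1 stood at 118, 55.3 and 52.6 CPM in HoxA2OE cells, against 31.8, 27.9 and 39.8 CPM in WT cells (log2 fold change 1.18, SE 0.21, adjusted p = 1.31e-05). Library 1 of HoxA2OE was the highest in each of these, and the groups did not overlap. Rpl22 stood at 251, 131 and 157 CPM in HoxA2OE cells, against 168, 171 and 212 CPM in WT cells, and did not pass the test (log2 fold change -0.04). Rps27l stood at 86.3, 28.2 and 29.9 CPM in HoxA2OE cells, against 19.1, 20.3 and 24.8 CPM in WT cells, again without overlap (log2 fold change 1.16, SE 0.25, adjusted p = 0.000159). Without library 1 of HoxA2OE the log2 fold changes were 0.90 for Rpl23a (adjusted p = 9.56e-06), 0.54 for Rpl39 (adjusted p = 0.0179) and 0.69 for Rpl22l1 (adjusted p = 0.00258). Without that library Rps27l was no longer called (0.42, adjusted p = 0.0695), and Rpl22 was called lower (-0.37, adjusted p = 0.0187).

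Among the genes that fell, Rplp1 of the stalk stood at 33.9, 24.6 and 41.3 CPM in HoxA2OE cells, against 68.2, 83.2 and 77.3 CPM in WT cells (log2 fold change -1.20, SE 0.27, adjusted p = 0.000231), whereas Rplp0 (0.41, adjusted p = 0.00558) and Rplp2 (0.51, adjusted p = 0.00193) rose under TMM and had negative values by library totals. Rps14 stood at 26.3, 40.4 and 48.2 CPM in HoxA2OE cells, against 75.7, 80.1 and 81.6 CPM in WT cells (log2 fold change -1.04, SE 0.19, adjusted p = 1.84e-05). Rps3 stood at 122, 217 and 247 CPM in HoxA2OE cells, against 383, 402 and 424 CPM in WT cells (log2 fold change -1.04, SE 0.16, adjusted p = 5.23e-07). Rps19 stood at 18.3, 27.2 and 32.2 CPM in HoxA2OE cells, against 50.3, 52.9 and 50.3 CPM in WT cells (log2 fold change -0.98, SE 0.17, adjusted p = 6.9e-06). In each of Rplp1, Rps14, Rps3 and Rps19 all HoxA2OE libraries lay below all WT libraries. Rpl38 (-0.21), Rpl5 (0.17) and Rpsa (0.11) did not pass the test. Rpl38 was called lower without library 1 of HoxA2OE (-0.76, adjusted p = 0.000758).

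By role, 20 of 43 large-subunit genes rose and 6 fell, 11 of 31 small-subunit genes rose and 8 fell, and 3 of 6 paralogs rose and 0 fell. Of the 30 small nucleolar RNA hosts 17 rose and 5 fell, and of the 54 genes that host none 20 rose and 10 fell. Of the biogenesis genes 28 of 70 rose and 16 fell (median 0.11), with Npm1 at 1.38 and Gar1 at -1.29. Of the translation factors 15 of 20 rose and 1 fell (median 0.54), and of the mitochondrial ribosomal protein genes 33 of 77 rose and 9 fell (median 0.19). Erythroid markers summed to 11.2 to 13.8 CPM in HoxA2OE cells and 227 to 292 CPM in WT cells (8 of 9 lower), and markers of crest mesenchyme to 2490 to 3310 CPM in HoxA2OE cells and 1828 to 1885 CPM in WT cells (7 of 12 higher). HoxA2OE libraries were also deeper, at 45.6 M to 49.8 M counts against 18.8 M to 22.6 M in WT, and the part of depth, mitochondrial share and cell makeup in the differences was not tested.

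Between Hoxa2TempMut and Control PA2 cells of E11.5, no difference in the ribosomal protein genes passed the test. edgeR called 0 genes higher and 0 lower of 84, with 0 at an unadjusted p under 0.05 and 0 called by DESeq2, while over all tested genes 0.258% were higher and 0.365% lower. Rplp0 stood at 101, 91.2 and 106 CPM in Hoxa2TempMut cells, against 104, 97.4 and 97.5 CPM in Control cells. Rpl38 stood at 4.46, 4 and 4.82 CPM in Hoxa2TempMut cells, against 3.88, 4.62 and 3.73 CPM in Control cells. Rps14 stood at 19.3, 15.6 and 16.4 CPM in Hoxa2TempMut cells, against 16.8, 15.9 and 17.8 CPM in Control cells. All of these overlapped. Log2 fold changes ran from -0.22 (Rplp1, SE 0.28) to 0.32 (Rps18, SE 0.22) apart from Rpl29, which lay under 1 CPM. No gene of the biogenesis, mitochondrial or translation factor lists passed the test.

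Control PA2 cells of E11.5 stood below WT PA2 cells of E11.5 in nearly all ribosomal protein genes. Both are comparison groups of the series, and their difference bounds what may be compared across them. Of the 84 genes, 0 rose and 69 fell in Control cells, while over all tested genes 10.1% rose and 12% fell. Their median log2 fold change was -0.79, against -0.01 over all tested genes, and in 77 genes every Control library lay below every WT library, as in 22.7% of all tested genes. The 87 genes took 0.584%, 0.570% and 0.546% of non-mitochondrial counts in Control cells and 1.03%, 1.01% and 0.932% in WT cells. All 3 stalk genes, 36 of 43 large-subunit genes, 26 of 31 small-subunit genes and 3 of 6 paralogs fell.

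Rplp1 stood at 15.6, 13.8 and 12.6 CPM in Control cells, against 57.9, 33.3 and 50 CPM in WT cells (log2 fold change -1.75, SE 0.28, adjusted p = 7.88e-06). Rpl28 (ENSMUSG00000030432, chromosome 7, 4792874 to 4794562) stood at 14.5, 15.3 and 13.9 CPM in Control cells, against 44.1, 43.2 and 38.6 CPM in WT cells (log2 fold change -1.53, SE 0.17, adjusted p = 1.14e-08). Rpl36 stood at 3.77, 3.77 and 3.51 CPM in Control cells, against 11.1, 10.9 and 9.54 CPM in WT cells (log2 fold change -1.51, SE 0.22, adjusted p = 2.74e-06). None of these overlapped, and the Control libraries lay close to one another. Rps14 stood at 16.8, 15.9 and 17.8 CPM in Control cells, against 45.2, 45.9 and 41.2 CPM in WT cells (log2 fold change -1.39, SE 0.20, adjusted p = 1.48e-06). Rpl38 stood at 3.88, 4.62 and 3.73 CPM in Control cells, against 9.94, 9.85 and 9.12 CPM in WT cells (log2 fold change -1.24, SE 0.24, adjusted p = 0.000141). Each was lower in every Control library. Rpl11 (-0.94, adjusted p = 1.63e-06), Rps4x (-0.94, adjusted p = 1.11e-08), Rplp0 (-0.76, adjusted p = 1.85e-05), Rps19 (-0.65, adjusted p = 0.00504) and Rpl5 (-0.43, adjusted p = 0.00363) fell too. Rpsa stood at 32.4, 30.8 and 31.2 CPM in Control cells, against 28.3, 31.6 and 19.5 CPM in WT cells, and did not pass the test (log2 fold change 0.25, adjusted p = 0.351). Rps20 (-0.03), Rpl22l1 (-0.27) and Rpl10 (-0.14) did not pass the test either.

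In this comparison, genes with fewer exonic bases had lower values. Of 45 ribosomal protein genes with at most 1500 exonic bases, 40 fell (median -0.90), and of 39 wider ones 29 fell (median -0.63). Over the genes, log2 fold change and exonic width had a Spearman rho of 0.45, over genes that share the same 6 libraries. Such a relation was not confined to this comparison: at E11.5 rho was 0.48 for PA2, -0.43 for FNP, -0.36 for Md and 0.35 for Mx over the other subpopulations, and it was -0.35 for Ezh2cKO over WT, in comparisons that share libraries. Other protein-coding genes with at most 1500 exonic bases had a median of -0.35 (1853 genes) and wider ones of 0.01 (13696 genes). Fau (-1.35) fell, 42 of 77 mitochondrial ribosomal protein genes fell and 1 rose (median -0.40), and 10 of 20 translation factors fell (median -0.32). Of the biogenesis genes 9 of 70 rose and 10 fell, with a median of 0.00. Markers of cranial mesoderm and muscle summed to 24.8 to 44.4 CPM in Control cells and 3.15 to 9.5 CPM in WT cells (7 of 8 higher), endothelial markers to 19.7 to 29.7 CPM in Control cells and 35.1 to 37.96 CPM in WT cells (3 of 10 lower), and mitochondrial genes took 19.65% to 20.05% of counts in Control cells and 15.4% to 17.97% in WT cells. The part of width, of these cells and of library preparation in the difference was not tested, and since the labels do not say how Control embryos differ from WT, genotype and preparation cannot be told apart.

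**Figure D5:**
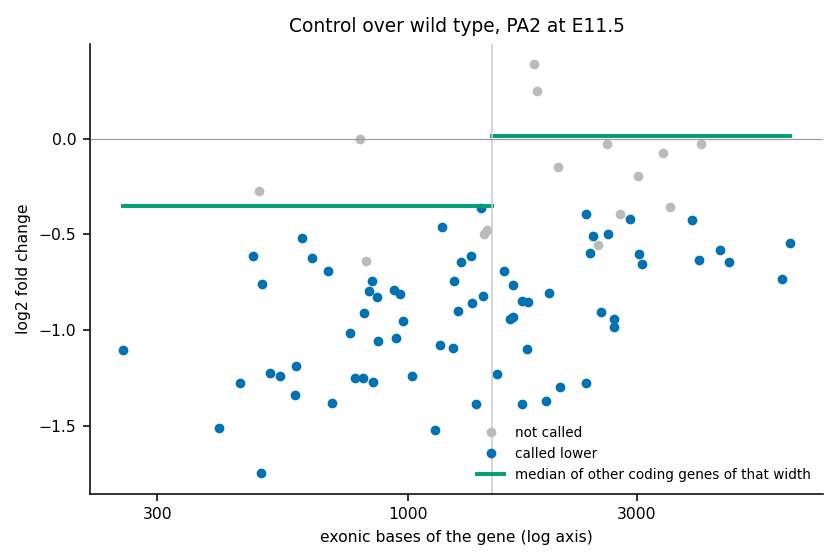
Log2 fold change of Control over WT PA2 at E11.5 for the 84 tested genes (vertical axis) against exonic width in bases (horizontal log axis), coloured by whether the gene was called lower, with a line at 1500 bases and green bars at the median of the other protein-coding genes on each side. The medians of the other genes are -0.35 at or below 1500 bases and 0.01 above, while those of the ribosomal protein genes are -0.90 and -0.63.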

How the data were processed

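The table used was the read count per gene and library as deposited by the authors, whole numbers with no normalization per the file headers, with the exonic width of each gene. Reads were single-end, of 50 bases, from unstranded libraries of total RNA per the labels' protocols, and were demultiplexed with bcl2fastq 2.17 and assigned to GRCm38 per the submitters' processing notes. Not given in the sources used here are the aligner, the counting tool, the annotation release and the handling of reads with several matches. The last of these matters for genes with many pseudogenes, and without strand reads of overlapping genes cannot be told apart. In the header 22 column names stand 2 times with identical values and were used once.

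Counts were analysed with edgeR 4.0.16 in R 4.3.3, tested on simulated data first. TMM scaling (factors 0.514 to 1.16), a filter on low counts by group (count minimum 10, total minimum 15) that left 20560 of 38215 genes, and 1 quasi-likelihood fit of a mean per group over the 47 libraries (31 residual degrees of freedom) gave 14 comparisons and 2 F tests, with Benjamini-Hochberg adjustment over all genes tested and calls below 0.05. The SE of a log2 fold change is its size over the square root of F. Levels are CPM of TMM-scaled totals. The counts' precision is limited by 18.8 to 49.8 M counts per library. Named were fixed members with developmental phenotypes or paralogs, the 4 largest called changes per comparison and direction where the higher side averaged 5 CPM or more, the 5 highest and 5 lowest per kb of coding length, the first 4 of an F test, and up to 3 of each other list. Rpl12, Rpl6, Rpl37a and Rps2 are named as all members of short counts of calls, and Rpl6 in the F test, Rps18 and further members were chosen after their values were seen. A few genes that these rules name are not reported here. The members and lists were chosen with earlier results of these data known. Alternatives were relative log expression, upper-quartile and library-total scaling, no filter, DESeq2 1.42.0, fits of only the groups compared, a replicate block, and leaving out each of the 47 libraries. Positions, coding lengths and shared 50-base words came from GENCODE M21 on GRCm38, and promoters from RefSeq on GRCm38.p6.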

Additional observations from a re-analysis of the deposited data

Results flagged for a closer look

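The change of 5 of the 84 ribosomal protein genes over the day before E11.5 differed among the 4 WT subpopulations by the F test of that difference (edgeR quasi-likelihood, 3 contrasts, Benjamini-Hochberg over all genes tested), which called 15.6% of all tested genes. They were Rps9, Rps3, Rpl35a and Rpl3, given above, and Rpl6, of the large subunit, with log2 fold changes of 0.29 for FNP, -0.15 for Mx, -0.12 for Md and 0.04 for PA2 (adjusted p = 0.0331). Rpl6 stood at 196, 202 and 237 CPM in E11.5 FNP, against 171, 170.4 and 176 CPM in E10.5 FNP, and at 192, 181 and 195 CPM in E11.5 Mx, against 209 and 210.5 CPM in E10.5 Mx. Every E11.5 library of FNP lay above, and every E11.5 library of Mx below, the E10.5 libraries of its subpopulation. FNP had the highest value of the 4 subpopulations for Rps9, Rps3, Rpl3 and Rpl6 and the lowest for Rpl35a. Library 1 of E10.5 FNP and of E10.5 PA2 and library 3 of E11.5 FNP and of E11.5 Mx stood apart from their groups over all genes, and without each in turn the F test called 4, 8, 1 and 5 genes. Apart from the chi-square ratio over all genes, groups of 3 or fewer libraries were not examined for single outlying libraries by a rule.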

How the results depend on the processing

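The counts of called genes stayed within 1.5 times under every alternative run for E10.5 over E8.5, E11.5 over E10.5, Hoxa2TempMut over Control, Control over WT PA2, Md at E11.5 and the Ezh2cKO F test. For E10.5 over E8.5, leaving out each library gave 4 to 7 higher and 49 to 56 lower, for E11.5 over E10.5 14 to 15 higher and 51 to 53 lower, and for Control over WT PA2 62 to 65 lower. Counts moved further as follows, and the cause was not tested. DESeq2 gave 3 higher and 2 lower for FNP and 2 lower for PA2 at E11.5. Relative log expression scaling gave 1 lower for PA2 at E10.5, 3 higher and 2 lower for FNP and 2 lower for PA2 at E11.5. Upper-quartile scaling gave 1 lower for PA2 at E10.5, 2 higher and 2 lower for FNP and 2 lower for PA2 at E11.5, and 4 higher for Ezh2cKO. Library totals gave 0 higher and 24 lower for FNP, 2 higher for Mx and 1 lower for PA2 at E10.5, 1 higher for FNP and 2 lower for PA2 at E11.5, 6 higher and 45 lower for HoxA2OE, and 12 genes in the stage F test. No filter gave 8 lower for PA2 at E10.5, 10 higher for FNP and 2 lower for PA2 at E11.5, 4 higher for Ezh2cKO and 12 genes in the stage F test. Fits of only the groups compared gave 4 higher and 21 lower for FNP, 3 higher for Mx, 7 higher for Md and 18 lower for PA2 at E10.5, 2 lower for FNP at E11.5, 9 higher for Ezh2cKO, 17 higher for HoxA2OE and 11 genes in the stage F test. Leaving out each library in turn gave 1 to 4 higher and 7 to 13 lower for FNP at E10.5, 0 to 2 higher for Mx, 0 to 3 higher for Md and 0 to 7 lower for PA2 at E10.5, 0 to 13 higher and 0 to 2 lower for FNP, 0 to 2 lower for Mx (2 without library 1 of Mx) and 2 to 4 lower for PA2 at E11.5, 1 to 3 higher for Ezh2cKO, 22 to 43 higher and 11 to 21 lower for HoxA2OE, and 1 to 8 genes in the stage F test. Of the single named values, 8 were counted as reversed in sign, all in HoxA2OE under library totals: Rpl5 to -0.47, Rpl11 to -0.30, Rplp0 to -0.20, Rplp2 to -0.094, Rps6 to -0.15, Rpl36al to -0.57, Rps4x to -0.051 and Rps19bp1 to -0.11. Of the other named values, 7682 were counted as unchanged, 179 lost a call and 74 gained one. Values near 0 that did not pass the test can change sign with the scaling without being counted. For FNP at E10.5, library totals moved the median of all tested genes from 0.01 to -0.18. Whether libraries of the same replicate number are paired was not settled, and the main fit did not pair them. In no comparison did every pair of the same number correlate above 0.1 in its deviations from the group means. For PA2 at E10.5 these correlations were -0.05 to 0.12, and 7 of 8 pairs correlated best with their own number. For Control over WT PA2 they were -0.11 to 0.01, and 0 of 3 did. With a replicate block 2 genes were higher in Mx at E10.5, 5 lower in PA2 at E10.5, 6 higher in FNP at E11.5, 36 higher and 15 lower in HoxA2OE, 70 lower in Control and 6 in the stage F test, and the other counts did not move. Depth limits the genes under 5 CPM, Rpl29 and Rps2 among them.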
